A study of Mus musculus with 6 samples.

Results

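The cytosolic ribosomal protein genes were followed in RNA-seq of mouse SVF cells that overexpressed PPARγ2 K382Q or PPARγ2 K382R, on day 2 of beige adipocyte differentiation. They were chosen by name alone, as Rpl or Rps followed by a number and at most 2 letters, together with Rplp0, Rplp1, Rplp2 and Rpsa. The rule found 86 of the 56884 genes in each library, and 84 of them were tested together with all other genes that reached 0.5 TPM in 3 or more of the 6 libraries, 15426 genes in total. TPM gives a transcript's share of all transcripts, corrected for transcript length, so that levels of different genes can be compared. The 86 genes held 30 genes of the small subunit, 46 of the large subunit, and 10 paralogs or retrocopies, that is, second copies of a ribosomal protein gene that arose by gene duplication or from a reinserted mRNA. Rps3a1, Fau and Rack1 also encode parts of the ribosome but have names outside the rule, and are given separately.

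The SVF cells are a cell line from the stromal vascular fraction of subcutaneous white adipose tissue (scWAT), the fraction that holds adipocyte precursors. Mouse PPARγ2 was delivered by retrovirus and the cells were selected with puromycin. The K382Q form has glutamine at lysine 382 and mimics acetylation, and the K382R form has arginine there and mimics deacetylation. Both groups received the same induction medium, which contained dexamethasone, insulin, isobutylmethylxanthine, indomethacin, T3 and the PPARγ ligand rosiglitazone, and no change to the endogenous Pparg gene is named in the labels. Each group had 3 libraries labelled as biological replicates, and cells without a mutant were not analysed here. Whether the replicates of a group came from separate transductions is not given in the sources used here. The p-values therefore measure only the spread between these cultures, which derive from a single parental line. The K382Q and K382R cells were transduced with separate vectors and selected. An effect of the mutant cannot be told apart from a difference between the transduced populations. The aligned reads were estimated from the tables at 5.95 to 8.15 Gb per library. Pparg itself, vector and endogenous transcripts together, had a TPM of 1333, 1164 and 1104 in K382Q cells and 1590, 1632 and 1612 in K382R cells (log2 fold change −0.43, limma adjusted p = 0.000977). All 7 adipocyte markers checked were expressed, with a summed TPM of 52273 to 55968 in K382Q and 43845 to 45040 in K382R cells. The 7 stromal and preadipocyte markers were expressed too and summed to 536 to 580 and 930 to 967, respectively. The leukocyte markers summed to at most 0.667, with Adgre1 and Cd3e listed at 0, and the endothelial and erythroid markers to at most 2.23 and 0.401. The markers moved with the groups, and their part in the values below was not tested. In bulk RNA, a change in the number of cells of a type and a change in RNA per cell cannot be told apart.

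A ribosome consists of a small subunit, which reads the mRNA, and a large subunit, which joins amino acids. Each subunit needs its ribosomal proteins in near equal number, together with ribosomal RNA made by RNA polymerase I and the assembly factors of the nucleolus. The mRNAs of ribosomal proteins are abundant and short, and they begin with a run of pyrimidines after a C, the TOP motif (terminal oligopyrimidine). Through this motif the kinase complex mTORC1 and the RNA-binding protein LARP1 control their translation and stability.

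The ribosomal protein genes took up almost the same share of the transcripts in both groups. Their summed TPM was 9.12, 9.62 and 9.80% of the total in the K382Q libraries and 9.11, 9.18 and 9.13% in the K382R libraries. The means were 9.51% ± 0.35 and 9.14% ± 0.033 (SD, n = 3 each), a ratio of 1.04. K382Q replicate 1 lay within the K382R range, and the other K382Q libraries lay above it. The small subunit genes summed to 3.66% ± 0.136 and 3.51% ± 0.00752, and the large subunit genes to 5.70% ± 0.201 and 5.47% ± 0.0244, so that both subunits had the same ratio of 1.04. With FPKM, which is not rescaled to a fixed total, the ratio of the sums was 1.10, and with median-ratio scaling it was 1.16. The 322 genes annotated as pseudogenes of these genes added 0.887% ± 0.028 in K382Q and 0.846% ± 0.0238 in K382R cells.

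Levels of single genes spanned a wide range. Over the 76 small and large subunit genes the median of the mean TPM was 1029, and the quartiles were 833 and 1503. Of these genes, 70 had a mean TPM of at least 500 and 40 of at least 1000. Rplp1, a stalk protein of the large subunit, had the highest mean TPM (3724), followed by Rps2 (3021), a protein near the mRNA entry site, and Rpl19 (2761). At the other end, Rps15a (107) and Rpl21 (136), named after their values were seen, were the only subunit genes below a mean TPM of 200. The lowest of the 84 genes tested were the second copies Rps4l (9.20), Rpl39l (2.12) and Rpl32l (1.09).

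Compared with K382R cells, 25 of the 84 genes were higher in K382Q cells and 10 were lower at a limma adjusted p under 0.05, and 49 did not pass. Over all genes tested, 11.1% were higher and 36.9% were lower by the same test. The replicates of the groups did not overlap for 41 ribosomal protein genes (48.8%), while 57.0% of all genes tested had no overlap. None of the 84 passed the additional fold change of 2 that was used to call DEGs, against 3.88% of all genes tested, and the largest absolute log2 fold change was 0.74. The median log2 fold change was 0.03 over the ribosomal protein genes and −0.14 over all genes tested. Small subunit genes (11 higher and 3 lower of 30) and large subunit genes (14 higher and 5 lower of 46) had medians of 0.05 and 0.04. Of the 8 second copies tested, 0 were higher (0 also at an unadjusted p under 0.05) and 2 were lower.

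**Figure D1:**
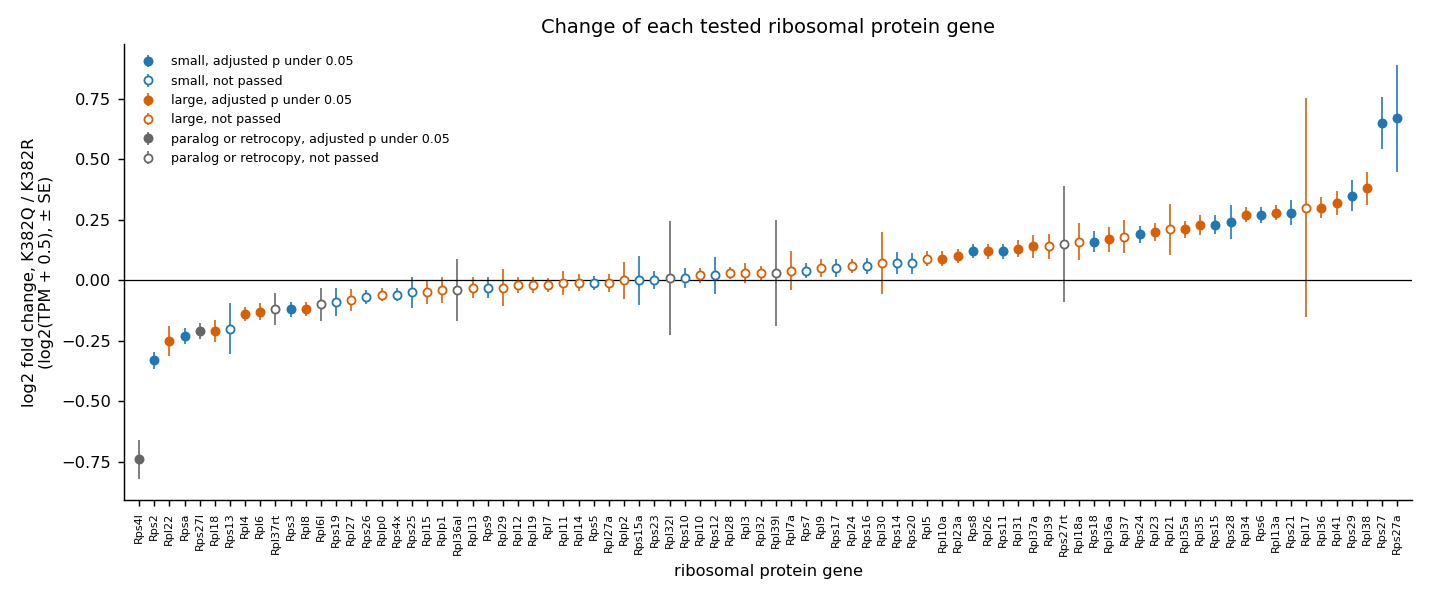
Log2 fold change of K382Q over K382R cells, on the log2(TPM + 0.5) scale, for the 84 ribosomal protein genes tested, ordered by size with the standard error from limma as bars. Blue points are small subunit genes, orange points large subunit genes and grey points paralogs or retrocopies, and filled points passed an adjusted p under 0.05. Outside 0.38 of 0 lay only Rps4l (−0.74), Rps27 (0.65) and Rps27a (0.67).

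The direction of most of these small differences depended on the scaling. TPM was replaced by FPKM, by coverage per aligned base, by median-ratio scaling and by quantile normalization, the ribosomal protein genes were left out of the total or used to centre each library, and trends with length or GC content were removed. Median-ratio scaling brought the median of all genes from −0.14 to 0.00 and gave 50 ribosomal protein genes higher and 2 lower. Quantile normalization gave 13 higher and 28 lower. The number higher ranged from 13 to 50 over the 9 scalings, the number lower from 2 to 28, and the median log2 fold change from −0.03 to 0.18. Under all 9 scalings, 11 genes passed as higher, namely Rpl13a, Rpl23, Rpl34, Rpl35, Rpl35a, Rpl36, Rpl38, Rps6, Rps21, Rps27 and Rps29, and 2 genes, Rps2 and Rps4l, passed as lower. By contrast, 12 genes passed as higher in some scalings and as lower in others, among them Rpl3, Rpl10, Rpl19, Rpl22 and Rps4x, and 12 genes passed in none.

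**Figure D2:**
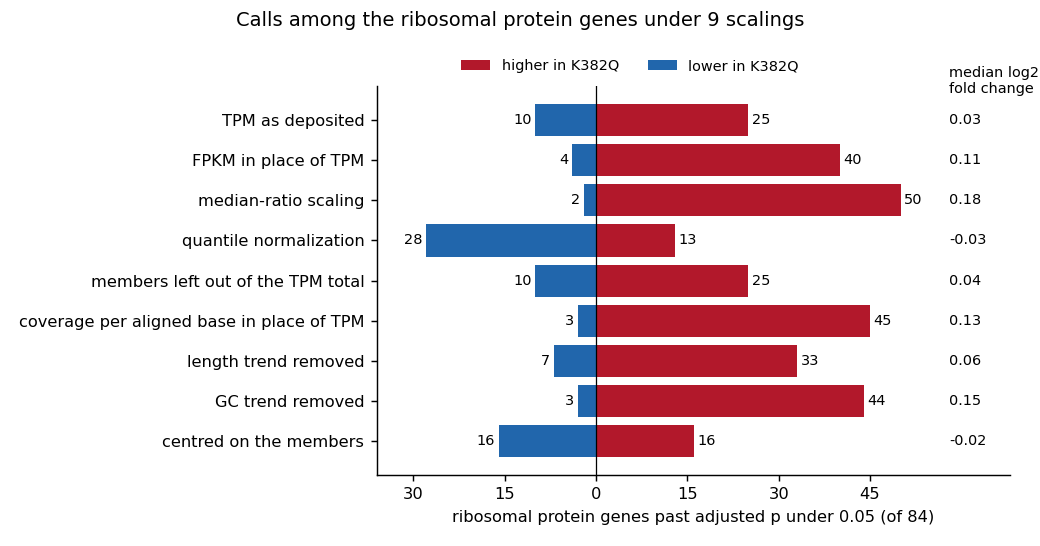
Number of the 84 ribosomal protein genes that passed a limma adjusted p under 0.05 as higher (red, to the right) or lower (blue, to the left) in K382Q cells under each of 9 scalings, with their median log2 fold change at the right edge. TPM as deposited gave 25 higher and 10 lower, and the counts ran from 50 and 2 with median-ratio scaling to 13 and 28 with quantile normalization.

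The largest increases past the test were those of Rps27a, Rps27, Rpl38, Rps29, Rpl41 and Rpl36. Rps27 (chromosome 3, 90119829 to 90120958, GRCm39), a zinc-finger protein of the small subunit, had a TPM of 1149, 868 and 1167 in K382Q and 682, 626 and 702 in K382R cells. All K382Q libraries were above all K382R libraries, although K382Q replicate 2 was well below the other K382Q libraries. The log2 fold change was 0.65 (SE 0.109, limma adjusted p = 0.00176), and it lay between 0.57 and 0.80 under the 9 scalings. Rps27a (chromosome 11, 29495846 to 29498109), which encodes ubiquitin fused to a small subunit protein, had a TPM of 647, 842 and 987 against 432, 427 and 718. Here the groups overlapped, since K382R replicate 3 was higher than K382Q replicate 1. Its log2 fold change of 0.67 (SE 0.221, adjusted p = 0.0375) did not pass the test without K382Q replicate 2 (adjusted p = 0.098), without K382Q replicate 3 (0.114), without K382R replicate 1 (0.115) or without K382R replicate 2 (0.113). With each library left out, the log2 fold change of Rps27a lay between 0.53 and 0.92.

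Rpl38, a large subunit protein known for its role in the translation of Hox mRNAs, had a TPM of 1012, 1100 and 1210 in K382Q and 838, 903 and 807 in K382R cells. The groups did not overlap (log2 fold change 0.38, SE 0.0682, adjusted p = 0.00254). Rps29, a small subunit protein with a zinc finger, had values of 1146, 1294 and 1391 against 981, 1018 and 997. It was higher in every K382Q library, by 0.35 on the log2 scale (SE 0.0645, adjusted p = 0.00291). Rpl41, which encodes the shortest protein of the ribosome, had values of 2755, 3080 and 3078 against 2444, 2358 and 2332, a log2 fold change of 0.32 (SE 0.0488, adjusted p = 0.00112). With quantile normalization its log2 fold change was 0.09 and did not pass (adjusted p = 0.124). Rpl36, of the large subunit, had values of 1185, 1274 and 1310 against 1051, 1013 and 993 (log2 fold change 0.30, SE 0.0431, adjusted p = 0.000802). In Rpl38, Rps29 and Rpl36, K382Q replicate 1 was the lowest K382Q library, and in Rpl41 likewise.

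Rps6 is the ribosomal protein that S6 kinase phosphorylates downstream of mTORC1. Its TPM was 1865, 1932 and 1934 in K382Q and 1567, 1642 and 1553 in K382R cells, with a wide gap between the groups (log2 fold change 0.27, SE 0.0331, adjusted p = 0.000386). Rpl13a, named after its values were seen, encodes the protein that is released from the ribosome in the interferon response to silence inflammatory mRNAs. Its values were 1925, 2003 and 1943 against 1600, 1639 and 1595, and it had the lowest adjusted p of all the ribosomal protein genes (log2 fold change 0.28, SE 0.0293, adjusted p = 0.000165). Of the 25 genes that rose, 14 passed the test whichever single library was left out.

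**Figure D3:**
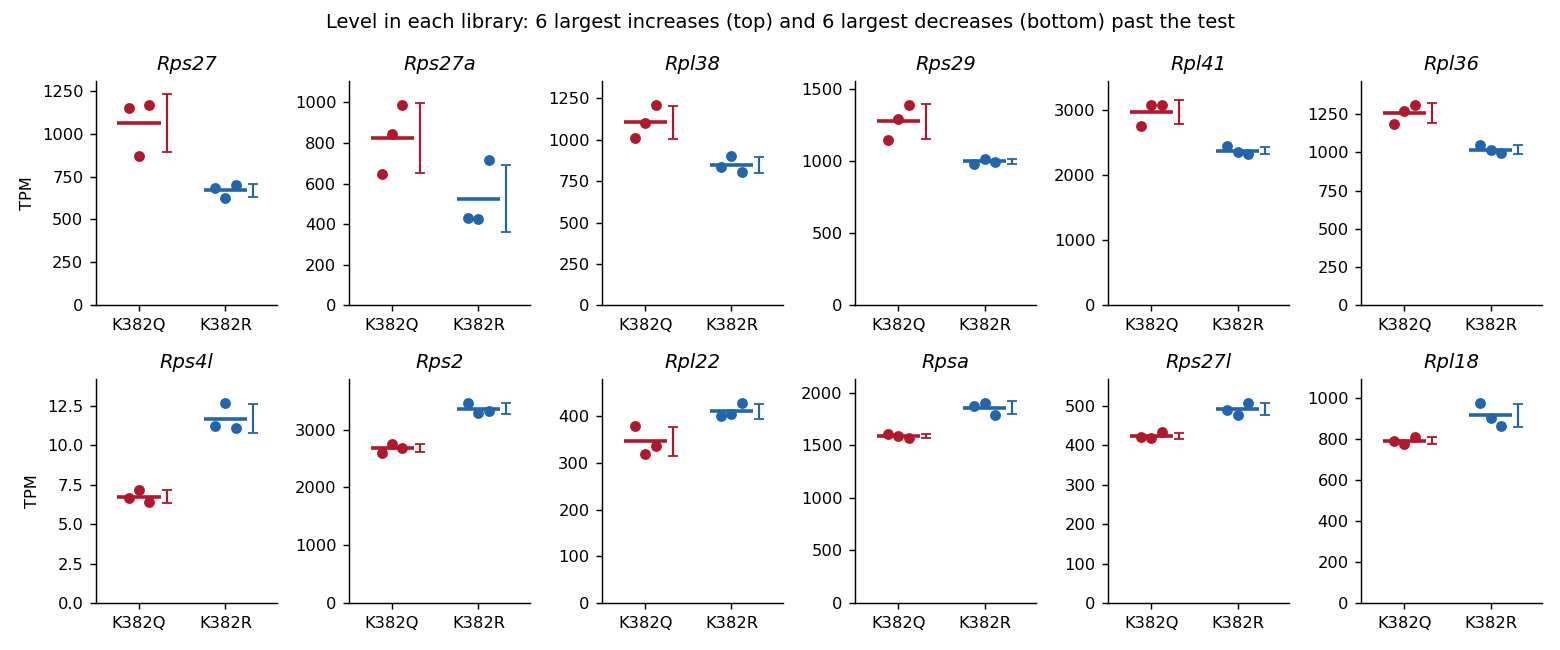
TPM of the 6 genes with the largest increases (top row) and the 6 with the largest decreases (bottom row) among those past the limma test, in each of 3 K382Q (red) and 3 K382R (blue) libraries. Points are libraries, horizontal lines are means, bars are SD and every axis starts at 0. The groups overlap in Rps27a and are separate in the other 11 genes.

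The decreases were fewer and were led by Rps4l, Rps2, Rpl22, Rpsa, Rps27l and Rpl18. Rps4l (chromosome 6, 148256098 to 148257431), an autosomal copy of the X-linked Rps4x, showed the largest decrease. Its TPM was 6.67, 7.18 and 6.41 in K382Q and 11.2, 12.7 and 11.1 in K382R cells, with no overlap (log2 fold change −0.74, SE 0.0817, adjusted p = 0.000211). Rps2 had values of 2604, 2746 and 2686 against 3468, 3296 and 3329. It was lower in every K382Q library (log2 fold change −0.33, SE 0.0348, adjusted p = 0.000175) and remained between −0.54 and −0.18 under the 9 scalings. Rpsa (chromosome 9, 119956755 to 119961435), which encodes a small subunit protein also known as the laminin receptor, had values of 1603, 1587 and 1569 against 1877, 1905 and 1788. Its log2 fold change of −0.23 (SE 0.0325, adjusted p = 0.000813) shrank to −0.07 with median-ratio scaling and to −0.09 with coverage per aligned base, where it did not pass (adjusted p of 0.138 and 0.0563).

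Rpl22, a large subunit protein that also binds viral and cellular RNAs, had a TPM of 380, 320 and 337 in K382Q and 400, 404 and 429 in K382R cells. The log2 fold change was −0.25 (SE 0.0621, adjusted p = 0.0116), and Rpl22 passed as lower in only 4 of the 9 scalings. It did not pass with FPKM, median-ratio scaling, quantile normalization or the GC trend removed (log2 fold change −0.19 to −0.10, adjusted p of 0.0623 to 0.2). Without the filter on low values the log2 fold change stayed at −0.25 but did not pass (adjusted p = 0.0521). The direction turned when coverage per aligned base was used. On that scale Rpl22 had 77, 76.7 and 80.7 per Gb against 65.7, 68.9 and 67.7 (log2 fold change 0.21, adjusted p = 0.00233). Rpl18, of the large subunit, had a TPM of 788, 776 and 808 against 975, 901 and 862 (log2 fold change −0.21, SE 0.0461, adjusted p = 0.00737). It did not pass with FPKM, coverage, median-ratio scaling or the GC trend removed (log2 fold change −0.12 to −0.05). Sphk2, which overlaps Rpl18 on the opposite strand, had a mean TPM of 17.1 in K382Q and 19.7 in K382R cells, and the strandedness of the libraries is not given in the sources used here. The remaining lower genes were Rps27l, described below with Rps27, and Rpl4, Rpl6, Rpl8 and Rps3, which fell by 0.12 to 0.14 on the log2 scale. Each of these 4 genes passed in only 4 or 5 of the 9 scalings, and the highest values over the scalings were 0.01, 0.03, 0.04 and 0.03. Of the 10 genes that fell, 7 passed the test whichever library was left out.

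The stalk proteins Rplp0, Rplp1 and Rplp2, which recruit translation factors to the large subunit, had log2 fold changes of −0.06, −0.04 and 0.00, and none of them passed (adjusted p of 0.122, 0.564 and 0.98). Over the 9 scalings they ran from −0.29 to 0.09, from −0.31 to 0.11 and from −0.09 to 0.15, and Rplp0 passed as lower in 2 scalings and Rplp1 in 1. Rpl5 and Rpl11, which can leave the ribosome to bind MDM2, the inhibitor of p53, had log2 fold changes of 0.09 (adjusted p = 0.0593) and −0.01 (adjusted p = 0.874). Rpl5 passed as higher in 5 of the 9 scalings (0.00 to 0.26), and Rpl11 passed as lower in 1 (−0.13 to 0.14). Rpl19 was at 2635, 2786 and 2812 TPM in K382Q and 2810, 2771 and 2751 in K382R cells, with overlapping groups (log2 fold change −0.02, adjusted p = 0.703). Its direction depended on the scaling, from −0.29 to 0.13.

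The libraries of K382Q cells varied more among themselves. The median SD of log2 TPM over the ribosomal protein genes was 0.0715 in K382Q and 0.034 in K382R cells. Relative to the K382R mean, the median ribosomal protein gene stood at −0.02 in K382Q replicate 1 and at 0.05 and 0.07 in the other K382Q libraries. Without K382Q replicate 1 the median log2 fold change of the ribosomal protein genes rose from 0.03 to 0.06. Rpl17, a large subunit protein named after its values were seen, varied most. Its TPM was 264, 561 and 524 in K382Q and 268, 218 and 706 in K382R cells, so that the libraries of both groups fell into high and low values (log2 fold change 0.30, SE 0.453, adjusted p = 0.62).

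Several ribosomal protein genes have a second expressed copy. Rps27l, a paralog of Rps27 and a known p53 target, had a TPM of 420, 419 and 434 in K382Q and 490, 477 and 508 in K382R cells (log2 fold change −0.21, SE 0.0323, adjusted p = 0.00109). The ratio of Rps27l to Rps27 was accordingly 0.365, 0.483 and 0.371 in K382Q and 0.718, 0.762 and 0.724 in K382R cells. The coding sequences of Rps27l and Rps27 are 76.2% identical, and no stretch of 50 bases is shared between their transcripts. Under median-ratio scaling and with the GC trend removed, the decrease of Rps27l was −0.06 and −0.08 and did not pass (adjusted p of 0.197 and 0.0892).

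Rps27rt is a retrocopy on chromosome 9 (114811434 to 114811807). Its coding sequence is 100% identical to that of Rps27, and 91.1% of its 50-base windows occur in the Rps27 transcript, so the division of reads between them is uncertain. Its TPM was 186, 302 and 163 against 189, 236 and 151, and the highest value was in the K382Q library in which Rps27 was lowest. Both genes summed to 1335, 1171 and 1330 in K382Q and 872, 862 and 853 in K382R cells, a ratio of 1.48. The sum was therefore higher in all K382Q libraries and varied less between them than Rps27 alone. Rpl6l, Rpl37rt and Rpl32l share 61.8, 81.2 and 19.4% of such windows with Rpl6, Rpl37 and Rpl32, and none of these 3 copies passed the test.

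Of the other second copies tested, Rps4l, described above, was the one that passed. Rpl36al, a paralog of Rpl36a, had a TPM of 392, 530 and 588 against 498, 520 and 510 (log2 fold change −0.04, adjusted p = 0.833). Rpl36a itself was at 765, 758 and 867 against 707, 694 and 718 (log2 fold change 0.17, adjusted p = 0.0276). When any 1 of the K382R libraries was left out, the log2 fold change stayed at 0.16 to 0.18 but did not pass (adjusted p of 0.0545 to 0.0835). Rpl39 (log2 fold change 0.14, adjusted p = 0.0526) was far above its paralog Rpl39l, which had a TPM of 1.55 to 2.86 (log2 fold change 0.03, adjusted p = 0.921). Rps4x, the parent of Rps4l, was at 1346, 1301 and 1296 against 1368, 1364 and 1370 (log2 fold change −0.06, adjusted p = 0.123). Under median-ratio scaling, which raised nearly all genes alike, the log2 fold change of Rps4x was 0.09. The ratio of Rps4l to Rps4x was 0.00494 to 0.00551 in K382Q and 0.00807 to 0.00931 in K382R cells. Rpl22l1, the paralog of Rpl22, had a log2 fold change of 0.06 (adjusted p = 0.39), and Rpl3 and Rpl10 of 0.03 and 0.02 (adjusted p of 0.63 and 0.635). Their paralogs were below the filter. Rpl3l, the striated muscle form of Rpl3, reached 0.329, 0.359 and 0.177 TPM in K382Q and 0.255 in a single K382R library, and Rpl10l, known from testis, was listed at 0 in all libraries but 1 (0.116). Just inside the filter, Rpl32l had a TPM of 0.672 to 1.41.

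The differences were ordered by coding length. The 25 subunit genes with the shortest coding sequences (75 to 396 bases) had a median log2 fold change of 0.17, with 14 higher and 1 lower, against 11.1% higher and 36.9% lower over all genes tested. Among the 25 genes of middle length (405 to 552 bases) the median was 0.06, and 7 were higher and 0 lower (0 also at an unadjusted p under 0.05). Among the 26 genes with the longest coding sequences (564 to 1257 bases) it was −0.02, and 4 were higher and 7 lower, the latter 26.9% of them. FPKM (0.25, 0.14 and 0.07) and median-ratio scaling (0.32, 0.21 and 0.14) shift nearly all genes alike, so the order could not change with them. The medians kept this order with coverage (0.24, 0.13 and 0.08). For some genes, such as Rplp1 and Rpl36, coverage per aligned base equals FPKM, so for them it is no separate check. With quantile normalization the order was also kept (0.09, −0.07 and −0.14). After removal of the trend with transcript length over all genes the medians were 0.24, 0.09 and 0.04. For 20 of the 76 genes the lengths used there reach more than 100 bases past the deposited gene bounds. Rpl37, with a coding length of 291 bases, entered with a transcript length of 6111 bases and moved from 0.18 to 0.37. This setting therefore cannot show whether the order holds once transcript length is accounted for.

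Across the 76 subunit genes, log2 fold change and log2 coding length had a Pearson's r of −0.50 and a Spearman's rho of −0.49. Without Rps27a and Rps27 the values were −0.54 and −0.49. Across the 12102 other protein-coding genes tested r was −0.08. Genes are not independent replicates, and all points come from the same 6 libraries. With the length of the spliced transcript, UTRs included, r was −0.12 and rho −0.21 across the same 76 genes. For 20 of them the annotated transcript reached more than 100 bases past the gene bounds in the deposited tables, and for 5, Rpl37 and Rpl37a among them, it was longer than the whole gene there. Across the other 56 genes r was −0.36 and rho −0.46 with transcript length, and −0.56 and −0.46 with coding length. With GC content r was −0.22 and with mean log2 TPM −0.08. Of the protein-coding genes outside the list whose spliced transcript was at most 500 bases long, 24.8% were higher and 29.4% lower, with a median of −0.10, and of the 12 ribosomal protein genes in that range 8 were higher, with a median of 0.20. For transcripts over 500 and up to 700 bases the other protein-coding genes were at a median of 0.09 with 33.3% higher, and the 18 ribosomal protein genes at 0.05 with 27.8% higher. The longer bins hold transcripts that reach past the deposited bounds, and no order by transcript length was read from them.

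**Figure D4:**
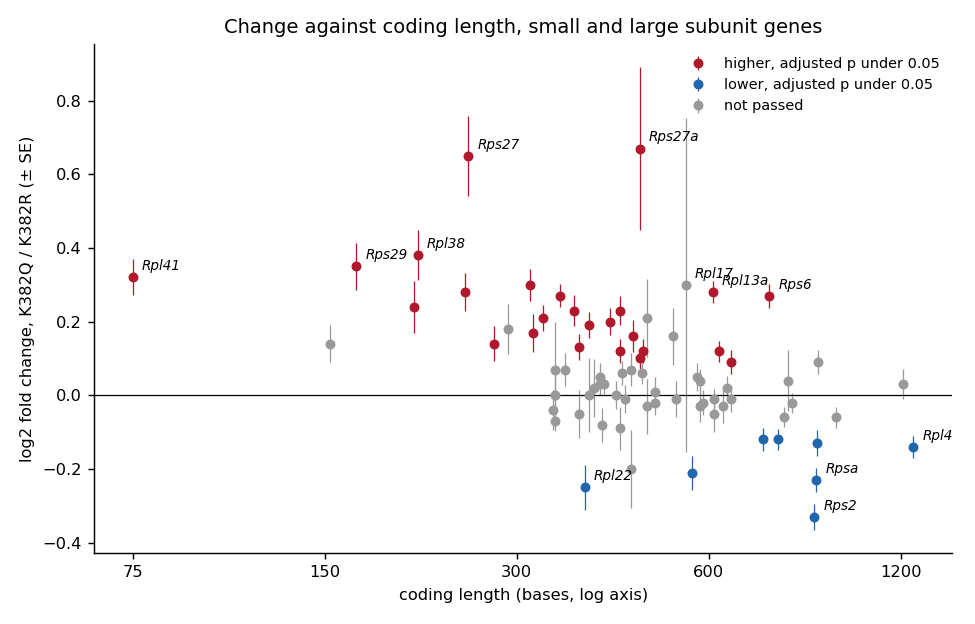
Log2 fold change of K382Q over K382R cells, with standard error, against coding length in bases on a log axis for the 76 small and large subunit genes. Red and blue points passed a limma adjusted p under 0.05 as higher and lower, and grey points did not pass. The 25 genes with the shortest coding sequences had a median of 0.17 and the 26 with the longest of −0.02.

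To show the TOP motif, the bases around the annotated start site are given for some of the genes that changed and for Rps27rt. All of them have an entry in the RefSeq promoter table (GRCm38.p6), which matched 64 of the 86 genes. Other genes that changed and had an entry, among them Rpl41, Rpl22 and Rps27l, are not shown. Rps27, Rpl38, Rpl13a and Rps6 rose, Rps27rt is the retrocopy of Rps27, and Rpl18, Rps2 and Rpsa fell. Each line holds 30 bases, 10 before the start and 20 from the start onwards, and capitals mark the longest run of C and T that begins with C, where it has at least 7 bases.
Rps27 (chr3:90213629-90213658, minus strand): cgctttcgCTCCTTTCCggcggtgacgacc
Rps27rt (chr9:114982720-114982749, minus strand): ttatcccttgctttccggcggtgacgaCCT
Rpl38 (chr11:114668570-114668599, plus strand): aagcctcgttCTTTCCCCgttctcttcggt
Rpl13a (chr7:45128726-45128755, minus strand): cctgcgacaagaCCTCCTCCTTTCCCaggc
Rps6 (chr4:86857348-86857377, minus strand): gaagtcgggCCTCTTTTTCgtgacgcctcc
Rpl18 (chr7:45718061-45718090, plus strand): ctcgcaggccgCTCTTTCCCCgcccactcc
Rps2 (chr17:24720053-24720082, plus strand): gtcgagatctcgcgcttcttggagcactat
Rpsa (chr9:120127756-120127785, plus strand): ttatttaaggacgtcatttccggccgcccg

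The runs of Rps27, Rpl38, Rpl13a, Rps6 and Rpl18 had 9, 8, 14, 10 and 10 bases. In Rps27rt the run of 7 bases began 17 bases after the start and goes past the bases shown, and Rps2 and Rpsa had no run of 7 bases within 20 bases of the start. The sequence of Rps27rt shares 38 bases in a row with that of Rps27 around the start. On the sense strand, a run of at least 7 bases of C and T that begins with C, within 20 bases of the annotated start, was found in 36 of the 64 genes (56.2%). Among all 27025 symbols in the table the share was 23.0%. It was 13 of 19 (68.4%) among the genes that rose and 3 of 8 (37.5%) among those that fell. Every gene shown that rose has such a run, so the lines shown give a sharper contrast than these shares. The match is a description of these letters, and the starts are annotated and were not measured in these cells. Rps27a, Rpl36, Rps29 and Rps4l had no entry.

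Genes that build the ribosome were mostly lower in K382Q cells. The lists compared were written with earlier results of these data known. Of 48 ribosome biogenesis genes, 45 were lower and 1 was higher in K382Q cells (median log2 fold change −0.41), against 36.9% lower and 11.1% higher over all genes tested, and under the 9 scalings 41 to 45 were lower and the median lay between −0.46 and −0.25. Rrp9, which binds the snoRNA that directs cleavage of ribosomal RNA, had a TPM of 30.3, 30.7 and 28.0 in K382Q and 50.4, 48.1 and 48.9 in K382R cells (log2 fold change −0.72, adjusted p = 1.73e-05). Bop1, a large subunit assembly factor, had values of 69.0, 65.8 and 66.7 against 110, 107 and 108 (log2 fold change −0.69, adjusted p = 3.93e-06). In both genes the groups were far apart. Nop10, a small protein of the pseudouridylation complex, was the gene that rose (log2 fold change 0.19, adjusted p = 0.019), and the abundant nucleolar protein Npm1 did not pass (log2 fold change −0.08, adjusted p = 0.381).

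Of 15 genes of RNA polymerase I and its initiation factors, 12 were lower and 0 higher (0 also at an unadjusted p under 0.05), with a median of −0.33. The share over all genes tested was 36.9% lower. Under the 9 scalings 7 to 13 were lower and at most 1 was higher. Polr1a, the largest subunit of the enzyme, had a TPM of 26.1, 27.2 and 26.7 in K382Q and 40.6, 40.4 and 41.0 in K382R cells (log2 fold change −0.60, adjusted p = 1.44e-05). Polr1e, a subunit that stabilizes the enzyme, had a log2 fold change of −0.54 (adjusted p = 0.00424).

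The 24 translation factors and other genes with TOP mRNAs included 2 that were higher and 13 that were lower (54.2%, against 36.9% of all genes tested). This balance depended on the scaling. Under median-ratio scaling 9 were higher and 3 lower and the median turned from −0.13 to 0.03, and with the length trend removed 9 were higher and 5 lower. Eif3b and Eif3d, subunits of the initiation factor eIF3, had log2 fold changes of −0.50 and −0.38 (adjusted p of 2.46e-05 and 2.53e-05) and passed as lower under all 9 scalings. Tpt1 and Hnrnpa1 were higher, by 0.19 and 0.17 on the log2 scale (adjusted p of 0.0118 and 0.0199), and passed in 7 of the 9 scalings, with Tpt1 at −0.10 under quantile normalization. The elongation factor Eef1a1 had a log2 fold change of −0.10 (adjusted p = 0.0356) and Eef2 of −0.02 (adjusted p = 0.618), both with a direction that depended on the scaling. Of 78 mitochondrial ribosomal protein genes, 6 were higher (7.69%) and 14 lower (17.9%), against 11.1 and 36.9% of all genes tested, with a median of −0.03. The balance reversed to 33 higher and 2 lower with median-ratio scaling, 29 and 3 with quantile normalization and 30 and 3 with the GC trend removed, and the median ran from −0.09 to 0.12 over the scalings. Mrpl24 (0.33) and Mrpl45 (0.22) showed the largest increases and Mrpl11 (−0.42) and Mrps11 (−0.29) the largest decreases on the log2 scale. Mrpl11 passed as lower in 8 of the 9 scalings and ran from −0.47 to −0.05.

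Genes related to the ribosome with names outside the rule included Fau, which was higher, and Rpl7l1, which was lower. Fau, a fusion of a ubiquitin-like protein with a small subunit protein, had a TPM of 1629, 1865 and 1859 in K382Q and 1476, 1434 and 1444 in K382R cells (log2 fold change 0.30, adjusted p = 0.0026). It was higher in every K382Q library. Rack1, a scaffold on the small subunit, had a log2 fold change of −0.01 (adjusted p = 0.812) and Rps3a1 of 0.04 (adjusted p = 0.365). Rpl7l1, an assembly factor related to Rpl7, was at 90.9, 86.3 and 86.5 against 117, 118 and 119, and passed as lower under all 9 scalings (log2 fold change −0.42, adjusted p = 3.58e-05).

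Among 19 genes of mTORC1 and TOP control, 3 were higher and 10 lower (52.6%, against 36.9% of all genes tested), with a median of −0.20 that ran from −0.25 to −0.01 over the scalings. The number lower dropped to 4 with median-ratio scaling, quantile normalization or the GC trend removed. The inhibitor Ddit4 had a TPM of 446, 498 and 455 in K382Q and 230, 240 and 235 in K382R cells (log2 fold change 0.99, adjusted p = 3.17e-06). Deptor, another inhibitor, had values of 28.3, 25.9 and 27.8 against 17.6, 16.7 and 17.4 (log2 fold change 0.65, adjusted p = 4.56e-05), and Eif4ebp1, the translation repressor that mTORC1 phosphorylates, rose by 0.24 (adjusted p = 0.00589). These 3 genes were higher in every K382Q library and under all 9 scalings. Larp1 had values of 82.3, 82.1 and 81.0 against 107, 109 and 108 (log2 fold change −0.40, adjusted p = 2.65e-05), and Akt1s1, a component of mTORC1 that also inhibits it, had a log2 fold change of −0.43 (adjusted p = 0.000446). Of the other negative regulators of mTORC1 in the list, none was higher. Tbc1d7, a subunit of the TSC complex, was lower (log2 fold change −0.22, adjusted p = 0.00624), and Tsc1, Tsc2, Sesn1, Sesn2 and Castor1 did not pass (−0.05, −0.07, −0.09, −0.03 and −0.23, adjusted p of 0.278 to 0.615). Mtor and the S6 kinase gene Rps6kb1 were lower by smaller amounts (log2 fold changes −0.13 and −0.20, adjusted p of 0.0475 and 0.00537) and passed in 2 and 4 of the 9 scalings, with Mtor ranging up to 0.06.

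Of 9 tested genes of the MYC network, which drives ribosome production, 2 were higher and 4 lower (44.4%, near the 36.9% of all genes tested), with a median that changed sign between scalings (−0.17 to 0.07). The counts became 3 higher and 1 lower with median-ratio scaling and with quantile normalization, and 4 and 1 with the length trend removed. Myc had a TPM of 70.1, 71.6 and 66.8 in K382Q and 96.3, 103 and 105 in K382R cells (log2 fold change −0.54, adjusted p = 4.80e-05). Its antagonist Mxi1 had values of 57.4, 62.8 and 58 against 31.3, 30.8 and 30.5 (log2 fold change 0.93, adjusted p = 4.11e-06), and Mxd3, of the same family, rose by 0.29 (adjusted p = 0.0104). Max, the partner of both sides, was at −0.24 (adjusted p = 0.00378) and passed in 5 of the 9 scalings. Of 10 genes of nucleolar stress and p53, 6 were lower (60.0%) and 1 was higher (10.0%), against 36.9 and 11.1% of all genes tested. Targets of p53 went both ways. Zmat3 and Eda2r had log2 fold changes of −1.02 and −1.01 (adjusted p of 6.35e-06 and 3.59e-05). Cdkn1a, the cell cycle inhibitor and also a target of p53, rose by 0.36 (adjusted p = 5.26e-05).

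**Figure D5:**
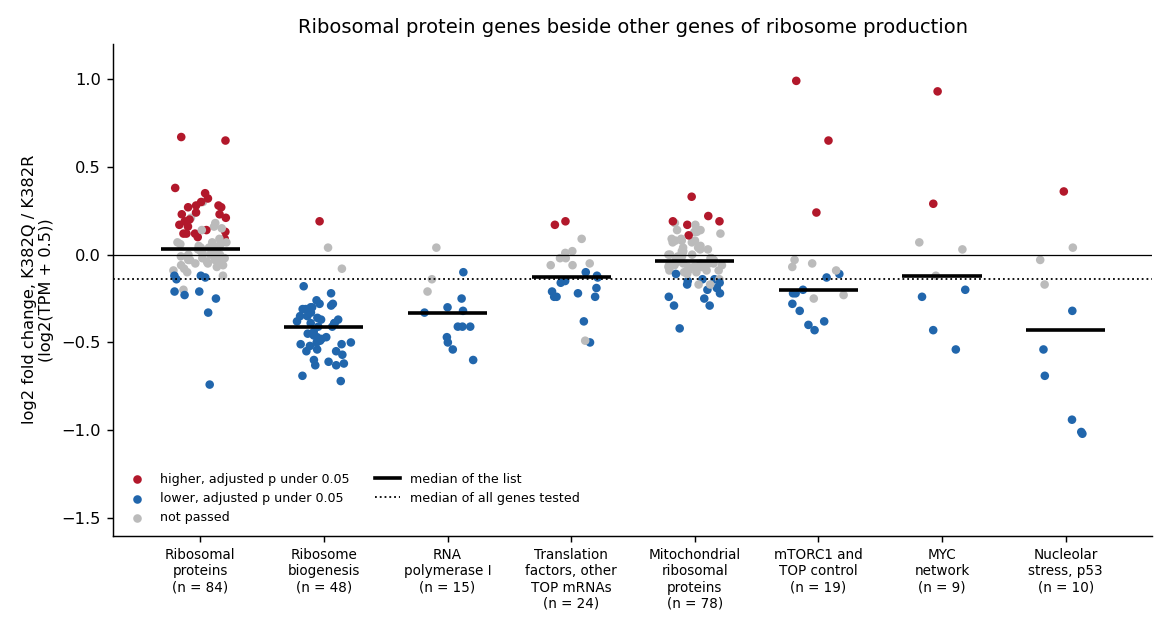
Log2 fold change of K382Q over K382R cells for the tested ribosomal protein genes and for 7 lists of related genes, with 1 point per gene (red and blue for a limma adjusted p under 0.05, grey for not passed), the median of each list as a thick line and the median of all genes tested (−0.14) as a dotted line. The ribosomal protein genes (median 0.03) lay around 0, and the ribosome biogenesis genes (−0.41) and RNA polymerase I genes (−0.33) lay below it under all 9 scalings.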

How the data were processed

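RNA of 3 K382Q- and 3 K382R-overexpressing cultures was sequenced (NEBNext Ultra kit, paired 150-bp reads). Adapters were removed by the authors with TrimGalore, alignment to GRCm39 was done with HISAT2, and StringTie gave the gene levels. The release of the annotation and the strandedness are not given in the sources used here. The authors deposited 1 gene table per library, with the mean coverage per base (not normalized), FPKM and TPM. The deposited FPKM is scaled to the aligned bases of a library, and the deposited TPM to a fixed total, so that TPM shows shares of the transcripts and not amounts. Counts were not analysed here, so no counting interval was given and the precision is that of 3 replicates. The aligned bases of a library were estimated as the highest ratio of coverage to FPKM over its genes. This ratio is not constant over genes, so the depth and the scale of coverage per aligned base rest on that estimate.

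Groups were taken from the labels. Values of repeated gene IDs were summed. The 15426 genes that reached 0.5 TPM in 3 or more libraries were compared with limma 3.58.1 in R 4.3.3, with log2(TPM + 0.5) as input, an intensity trend and Benjamini-Hochberg adjustment over all of them. The scale understates changes of low genes. The script was tested on simulated data. Python 3.11.15, pandas 2.3.3, numpy 2.4.6, Biopython 1.88 and matplotlib 3.10.9 were used for the rest. Coding and transcript lengths came from GENCODE mouse release 39 (the shortest transcript with a CCDS and a principal isoform tag, else the canonical one). This is not the release behind the deposited tables, since 3609 of 12102 other protein-coding transcripts reach more than 100 bases past the deposited gene bounds, so transcript lengths, GC contents and their trends are approximate. A correlation without such genes was added after the data were seen. Start sequences came from the RefSeq promoter table (250 bases before and 50 after the start, GRCm38.p6).

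Genes named were the 6 largest increases and decreases past the test, the 3 highest and 3 lowest tested genes by mean TPM, the paralog sets, the stalk proteins, Rpsa, Rps6, Rps27a, Rpl5, Rpl11 and Rpl19. In the other lists they were the 2 largest changes in each direction (mean TPM 5 or more), and 11 fixed genes. The members, lists and alternatives were chosen with earlier results of these data known. The alternatives were other pseudocounts (1 and 0.1), filters, units and scalings, array weights, no intensity trend, a replicate block, trends with length or GC removed (loess, span 0.3), a fold change of 1.5, fewer paralogs, and each library left out. Coverage per aligned base and the removal of all paralogs were added after the data were seen. Results for some single genes are left out.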

Additional observations from a re-analysis of the deposited data

How the results depend on the processing

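Limits. The differences are small against the choice of scaling, the deposited values carry no counts, reads of near-identical copies cannot be told apart, and 3 cultures of a single line limit each group. No exact permutation test of 3 against 3 can reach a two-sided p below 0.1.

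The 25 higher and 10 lower ribosomal protein genes and their median log2 fold change of 0.03 became 40, 4 and 0.11 with FPKM, 50, 2 and 0.18 with median-ratio scaling, 13, 28 and −0.03 with quantile normalization, 16, 16 and −0.02 when centred on these genes, 44, 3 and 0.15 with the GC trend removed, and 45, 3 and 0.13 with coverage per aligned base. Without the filter on low values 16 were higher, and without the intensity trend 14. With the length trend removed the median was 0.06. The replicate block left 25 higher, 10 lower and the median of 0.03. With the length trend removed and the replicate block, 6 were lower and the median was 0.06, and with the GC trend removed and the replicate block the values were 42, 2 and 0.15. Replicate numbers gave correlations of −0.0177, 0.0507 and 0.0223 between same-numbered libraries of the groups and share only a number. With each library left out, the number higher was 17 to 31, the number lower 8 to 13, the median 0.02 to 0.06 and the ratio of the summed TPM 1.03 to 1.06. That ratio was 1.10 with FPKM, 1.16 with median-ratio scaling and 1.10 with coverage. At a fold change over 1.5, 3 genes passed. Other settings (pseudocounts, a TPM minimum of 1, array weights, the ribosomal protein genes left out of the total, fewer paralogs) kept these counts within 1.5 times. The direction reversed for Rpl10 (−0.13) and Rpl3 (−0.10) with quantile normalization, for Rpl19 (0.13) and Rps4x (0.09) with median-ratio scaling, for Rpl19 (0.13) with the length trend removed and for Rpl22 (0.21) with coverage. Median-ratio scaling raised the log2 fold change of nearly all genes alike, so its reversals are not particular to Rpl19 and Rps4x. The causes of the other changes were not tested. Over 28 named genes and 23 alternatives, 570 values kept direction and side of the threshold or differed only in sign while past it in neither (63), 36 passed newly, 32 no longer passed and 6 reversed.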

Other observations

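On the coverage scale Rpl17, the gene with the largest spread between replicates, had 109, 134 and 126 per Gb in K382Q and 103, 85.2 and 159 per Gb in K382R libraries, a narrower range than on the TPM scale. The same low and high libraries were seen on both scales. The spread of Rps27rt (SD of log2 TPM 0.469 in K382Q and 0.321 in K382R), Rps27a (0.308 and 0.428), Rpl39l (0.357 and 0.289) and Rpl32l (0.282 and 0.357) came next. At the other end, Rpl7 had an SD of 0.491 TPM around a mean of 984 TPM in K382R cells. Rpl17 and Rpl7 were named after their values were seen.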
